A study of Homo sapiens with 4 samples.

Results

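The AMIGO and L1 families are groups of cell-surface adhesion proteins, and 7 of their genes were followed here among the 58735 genes of the count table: AMIGO1, AMIGO2 and AMIGO3, and L1CAM, CHL1, NRCAM and NFASC. Members were found by gene symbol, and all 7 were present. AMIGO2 and L1CAM were chosen by their measured changes between the groups compared here, which were large and opposite, so those changes are described without a test. The other 5 genes were taken because they belong to the same families. The RNA was from Hey-A8, a line of human ovarian cancer cells, with 2 libraries in each of 2 groups. Cells of the shCON group carried a negative control hairpin. Those of the shSPTLC2 group carried, by their labels, a hairpin against SPTLC2, a catalytic subunit of the enzyme that begins sphingolipid synthesis. The labels conflict. Titles, genotypes and design text speak of a stably reduced SPTLC2, whereas the treatment protocol describes transient transfection of hairpin plasmids against ZDHHC15 beside a scrambled hairpin. The groups follow the titles. No label says whether the cells were 1 clone or a pool, or whether the replicates were separate cultures, so p-values measure the spread between these libraries, which may be technical.

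AMIGO proteins span the membrane once and carry leucine-rich repeats and an immunoglobulin domain on the outside, through which they bind copies of themselves and each other. L1 family proteins carry immunoglobulin domains and fibronectin repeats outside and a short tail inside, which binds ankyrins and so ties the protein to the spectrin skeleton. Both families are best known from neurons, where they guide and bundle axons. In epithelial tumours, ovarian carcinoma among them, L1CAM is known as a protein of invading cells, and AMIGO2 has been described as a survival and adhesion protein.

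AMIGO2 and L1CAM changed in opposite directions, and AMIGO1 is the family member of AMIGO2 with reads and no call. The stretches of DNA next to the starts of these genes are therefore given. They come from RefSeq (GRCh38.p14), run 5′ to 3′ on the strand of the gene, and were trimmed to bases outside GENCODE 29 exons. Capitals mark matches on either strand to any of 6 short motifs. These were the TATA box, spelled TATAAA, the GC box, spelled GGGCGG, the CCAAT box, the AP-1 site, spelled TGACTCA, the cyclic AMP response element, spelled TGACGTCA, and the TEAD site, spelled GGAATG.
AMIGO2, chr12:47079960-47080209, minus strand: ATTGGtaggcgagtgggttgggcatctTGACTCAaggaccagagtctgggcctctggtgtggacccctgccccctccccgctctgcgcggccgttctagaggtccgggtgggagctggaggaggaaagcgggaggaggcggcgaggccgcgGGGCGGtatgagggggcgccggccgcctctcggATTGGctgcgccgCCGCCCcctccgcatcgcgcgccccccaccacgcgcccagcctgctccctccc
AMIGO1, chr1:109509739-109509977, minus strand: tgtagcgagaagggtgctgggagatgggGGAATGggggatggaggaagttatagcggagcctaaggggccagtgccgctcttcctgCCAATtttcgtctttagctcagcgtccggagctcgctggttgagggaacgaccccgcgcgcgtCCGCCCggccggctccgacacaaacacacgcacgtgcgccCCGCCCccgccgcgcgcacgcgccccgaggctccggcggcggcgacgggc
L1CAM, chrX:153876040-153876113, minus strand: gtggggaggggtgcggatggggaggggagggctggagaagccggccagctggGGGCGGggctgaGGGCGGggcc
The AMIGO2 window held 1 match to TGACTCA, 223 bases before the RefSeq start at position 47079959, and 4.20% of the 35114 promoter windows of 250 bases held at least 1. Each of the 3 genes had 2 matches to GGGCGG, a sequence found in 42.6% of all windows. For L1CAM they lay 35 and 47 bases before the RefSeq start at position 153876014, which is inside the gene as GENCODE 29 places it. Of the 250 bases before that start, 176 are exonic in GENCODE 29. GC content over the full 250 bases was 73.2% for AMIGO2, 70.8% for AMIGO1 and 62.8% for L1CAM, against a median of 58.0% over all windows. NRCAM also had 1 window with TGACTCA, at an internal start (position 108243385), where TGACGTCA lay beside it. A match describes the letters only. The libraries do not show which start was used, and for L1CAM GENCODE 29 also places a start further out, at position 153886174.

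The libraries held 14464784 to 15084966 counts. SPTLC2 had 871 and 884 counts in shCON and 587 and 662 in shSPTLC2, a log2 fold change of -0.52 ± 0.12 (SE; edgeR adjusted p = 0.0063). That call ended without either shSPTLC2 library (adjusted p up to 0.134, and 4.2e-04 to 0.134 over the 10 alternatives). No ZDHHC15 read was counted in any library, and 0 counts allow up to 0.206 CPM (counts scaled to library size). Over all genes, 2971 of 15313 (19.4%) were called at an edgeR adjusted p under 0.05, 1593 of them higher in shSPTLC2 (10.4%) and 1378 lower (9.00%), so that 53.6% of calls were higher, against 65.1% with library totals in place of TMM. Among markers set for the labelled cell type, KRT8, KRT18, KRT7, PAX8 and VIM were abundant, EPCAM had 3 to 10 counts, MUC16 at most 1 and CDH1 0. Of these 12 markers, 9 were tested. PAX8 (log2 fold change 0.73, edgeR adjusted p = 4.4e-04) and MSLN (0.61, edgeR adjusted p = 0.016) were called higher in shSPTLC2 and 0 were called lower. The shares over all tested genes were 10.4% and 9.00%. EPCAM, below the filter on low counts, had 10 and 9 counts in shCON and 3 and 5 in shSPTLC2. The mitochondrial genome took 5.46% and 6.39% of counts in shCON and 10.1% and 8.56% in shSPTLC2.

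AMIGO2 (ENSG00000139211, hg38 chromosome 12, 47075707 to 47079951, minus strand) was the member with the most reads in the control cells and fell about 4-fold. It had 1894 and 1621 counts in the shCON libraries and 467 and 411 in the shSPTLC2 libraries. As CPM these were 128 and 111 against 31.8 and 26.8. Both control libraries lay above both knockdown libraries. The higher replicate exceeded the lower by 1.15-fold in shCON and by 1.19-fold in shSPTLC2. The group means, 119.5 ± 11.6 and 29.3 ± 3.52 CPM (SD, n = 2), differed by 4.08-fold. The log2 fold change of -2.03 ± 0.13 (SE) belonged to the contrast that chose the gene. That value and the distance between the groups are therefore given as a description. Only 29 of the 15313 tested genes had a more negative value. AMIGO2 has its whole coding sequence in 1 exon, and 123 of its 3956 exonic bases are also exonic in PCED1B on the opposite strand.

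L1CAM (ENSG00000198910, chromosome X, 153861514 to 153886174, minus strand), the founding member of its family, moved the other way. It had 168 and 209 counts in shCON and 525 and 664 in shSPTLC2, which are 11.3 and 14.3 CPM against 35.7 and 43.3 CPM. The groups did not overlap, but the gene was picked for its change in these libraries, so their separation is a description only. The means were 12.8 ± 2.13 and 39.5 ± 5.35 CPM (SD, n = 2), a 3.08-fold difference. The log2 fold change was 1.62 ± 0.16 (SE), again a value of the contrast that chose the gene, and 112 tested genes had a higher one. L1CAM spreads its longest coding sequence over 28 exons. Of its 7270 exonic bases 798 are shared with other annotated genes, which had 0 counts (U52112.1) and 0 to 3 counts (LCA10) in these libraries. At 60.6%, its transcripts have a higher GC content than those of AMIGO2 (44.6%), and with an offset for GC content the values were 1.47 for L1CAM and -1.95 for AMIGO2.

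**Figure D1:**
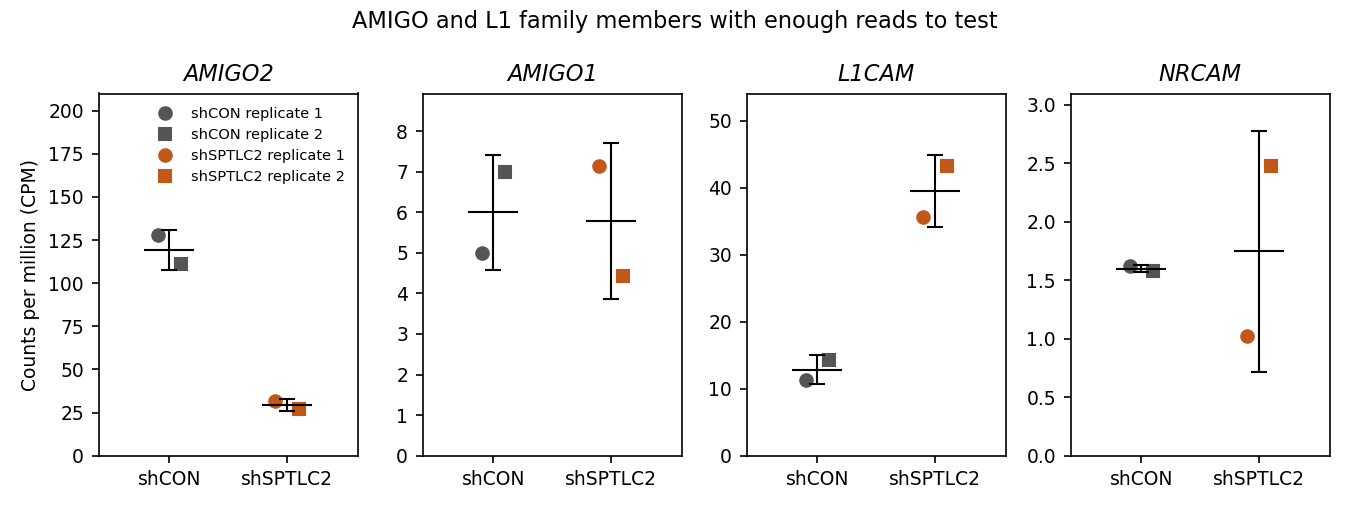
CPM (vertical axes, each starting at 0 with its own range) of the 4 members with enough reads to test, in the 2 shCON and 2 shSPTLC2 libraries; points are libraries, horizontal bars group means and whiskers SD (n = 2). AMIGO2 drops from 128 and 111 to 31.8 and 26.8 CPM and L1CAM climbs from 11.3 and 14.3 to 35.7 and 43.3 CPM, while the libraries of AMIGO1 and NRCAM overlap.

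AMIGO1 (ENSG00000181754, chromosome 1, 109504175 to 109509738, minus strand), the founding gene of its family, was not called. It had 74 and 102 counts in shCON against 105 and 68 in shSPTLC2. These are 4.99 and 7.00 CPM against 7.14 and 4.43 CPM, so that both the highest and the lowest library were of the shSPTLC2 group. The log2 fold change was -0.05 ± 0.27 (SE; edgeR adjusted p = 0.91, and 0.48 to 0.995 over the alternatives), with a 95% interval of -0.62 to 0.51. Changes within that interval were thus not excluded at this depth. A call also had to pass the adjustment over all tested genes, so a change beyond the ends of the interval could also have been missed. AMIGO1 shares no exonic base with another annotated gene.

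NRCAM (ENSG00000091129, chromosome 7, 108147623 to 108456717, minus strand), which organises sodium channels at the nodes of myelinated axons, was near the limit of what could be tested. Its counts were 24 and 23 in shCON and 15 and 38 in shSPTLC2, or 1.62 and 1.58 against 1.02 and 2.48 CPM. The shSPTLC2 libraries lay on either side of both controls and differed from each other by 2.43-fold. The log2 fold change was 0.13 ± 0.44 (SE; edgeR adjusted p = 0.86), with a 95% interval of -0.79 to 1.06. DESeq2 gave NRCAM no adjusted p. The sign of the log2 fold change followed whichever shSPTLC2 library was kept, at 0.63 without replicate 1 and -0.65 without replicate 2.

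The other 3 members fell below the filter on low counts. NFASC (ENSG00000163531, chromosome 1, 204828651 to 205022822, plus strand) encodes neurofascin, which anchors the axon initial segment. It had 0 counts in both shCON libraries and 3 in each shSPTLC2 library. Since 0 counts allow up to 3, these values lie at the limit of each library (0.195 to 0.206 CPM) and no difference was detectable. CHL1 (ENSG00000134121, chromosome 3, 196596 to 409417, plus strand), the close homologue of L1CAM, had 0 counts in all 4 libraries. AMIGO3 (ENSG00000176020, chromosome 3, 49716834 to 49719695, minus strand) had 0, 0, 0 and 1 counts, but its row says little about its transcript. Of its 2862 exonic bases, 2852 are also exonic in other genes, chiefly GMPPB on the same strand, which leaves 10 bases of its own. How the counting program treated such bases is not given in the sources used here. GMPPB, a sugar nucleotide enzyme gene, had 399 to 455 counts per library and a log2 fold change of -0.14 ± 0.13 (SE; edgeR adjusted p = 0.49), so any AMIGO3 reads counted to it cannot be told apart.

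In all, 4 of the 7 members were tested and 2 were called, 1 in each direction, against 19.4% of all tested genes. These were the genes picked for their change, so nothing can be read from that share. Among the 4 tested members, groups were fully apart, with no overlap between libraries, for AMIGO2 (lower) and L1CAM (higher), against 61.5% of tested genes (30.2% lower and 31.3% higher). In bulk RNA, fewer cells expressing a gene and less RNA per expressing cell cannot be told apart.

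Levels of different genes were compared per length, on the FPKM scale, which divides a count by gene length and library size. AMIGO2 led in the control cells at 32.3 and 27.9 FPKM, above 93.8% and 92.8% of protein-coding genes. In shSPTLC2 it was at 7.93 and 6.72 FPKM, above 75.8% and 72.7%. L1CAM stood at 1.56 and 1.96 FPKM in shCON, above 52.7% and 54.9% of coding genes, and at 4.85 and 5.90 FPKM in shSPTLC2, above 67.0% and 70.2%. The level of AMIGO2 was 20.7 and 14.3 times that of L1CAM in the 2 control libraries and 1.63 and 1.14 times in the 2 knockdown libraries. The order of the genes was therefore the same in every library, with AMIGO2 first, then L1CAM, then AMIGO1 (0.855 to 1.37 FPKM) and NRCAM (0.123 to 0.300 FPKM), while the distance between AMIGO2 and L1CAM shrank. In shCON, L1CAM and AMIGO1 were neighbours, at 1.61 and 1.45 times within a library. AMIGO3 reached 0.0226 FPKM in 1 library and NFASC 0.00948 and 0.00912 FPKM in shSPTLC2.

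**Figure D2:**
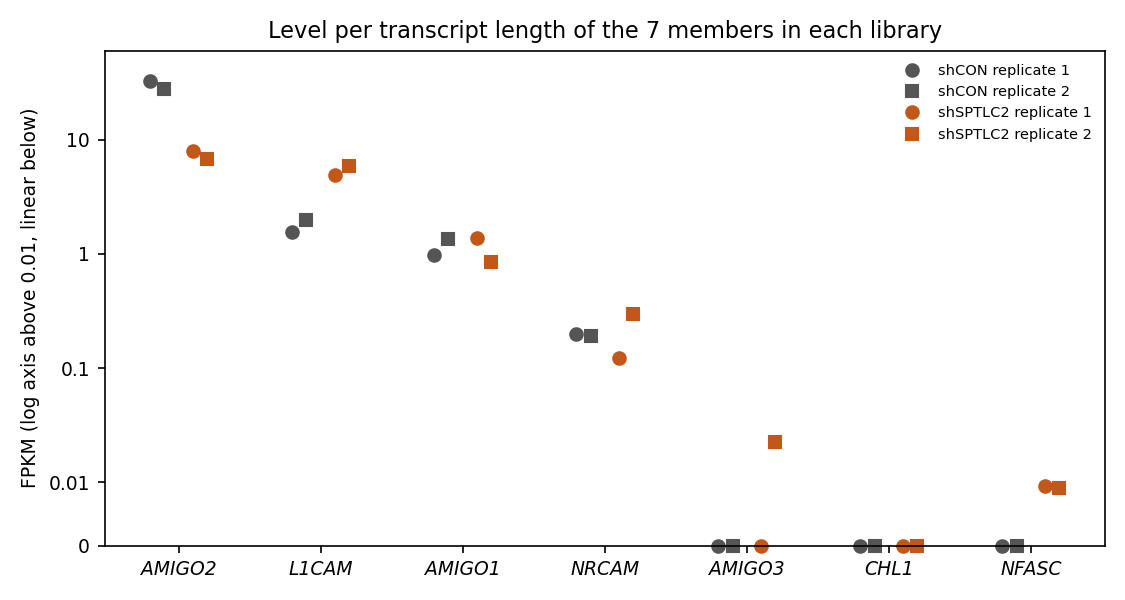
FPKM of the 7 members in each library (vertical axis logarithmic above 0.01 and linear below it), with 1 point per library and the groups side by side. AMIGO2 and L1CAM are far apart in shCON (32.3 and 27.9 against 1.56 and 1.96) and close in shSPTLC2 (7.93 and 6.72 against 4.85 and 5.90), and AMIGO3, CHL1 and NFASC lie at or near 0.

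Within each family, 1 gene held most of the reads. The AMIGO family had 1968 and 1723 counts in shCON and 572 and 480 in shSPTLC2. AMIGO2 made up 96.2% (exact 95% binomial interval 95.3 to 97.0%) and 94.1% (92.9 to 95.1%) of them in shCON, and 81.6% (78.2 to 84.7%) and 85.6% (82.2 to 88.6%) in shSPTLC2. AMIGO2 thus remained the main AMIGO gene read in the knockdown cells, and the smaller share came with AMIGO1 counts that overlapped between the groups. The L1 family had 192 and 232 counts in shCON and 543 and 705 in shSPTLC2, with L1CAM at 87.5% (82.0 to 91.8%) and 90.1% (85.5 to 93.6%), then 96.7% (94.8 to 98.0%) and 94.2% (92.2 to 95.8%). The intervals cover counting error only, and reads are not independent molecules.

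**Figure D3:**
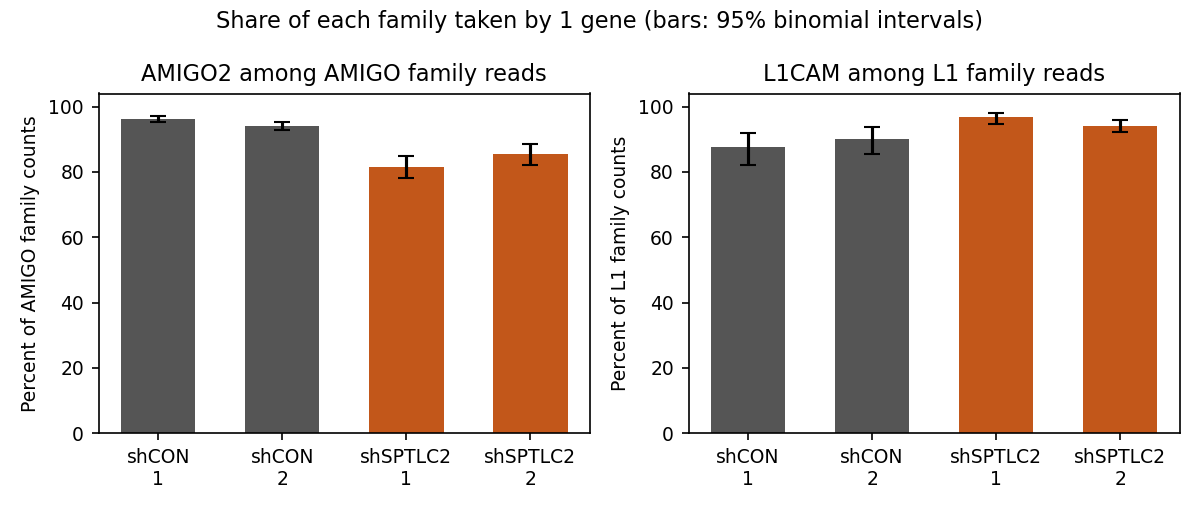
Percent of the counts of each family held by AMIGO2 (left) and by L1CAM (right) in each library, with axes from 0 and whiskers for exact 95% binomial intervals. AMIGO2 goes from 96.2% and 94.1% in shCON to 81.6% and 85.6% in shSPTLC2, and L1CAM from 87.5% and 90.1% to 96.7% and 94.2%.

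Genes beside the members on the chromosome were compared because the strand setting of the counting is not given, so reads of overlapping genes on opposite strands cannot be told apart. PCED1B, which starts inside AMIGO2 on the opposite strand, had 59 and 54 counts in shCON and 48 and 39 in the knockdown. The log2 difference was -0.41 ± 0.29 (SE; edgeR adjusted p = 0.34), and its counts were far below those of AMIGO2 in every library. The nearest tested genes on either side of AMIGO2 were AC008014.1, 200 kb away (-0.45 ± 0.38, edgeR adjusted p = 0.43), and RPAP3, 581 kb away (-0.13 ± 0.13, edgeR adjusted p = 0.50). Neither was called. Beside L1CAM, SSR4 at 63.0 kb had 0.15 ± 0.11 (edgeR adjusted p = 0.37). ARHGAP4, 21.2 kb away, had 2 and 15 counts in shCON and 26 and 20 in shSPTLC2, a log2 fold change of 1.39 ± 0.61 that was not called (edgeR adjusted p = 0.12). Of the 13 nearest tested genes around the 7 members, 1 was called, against 19.4% of all tested genes. It was MDM4, 271 kb from NFASC and higher (0.63 ± 0.14, edgeR adjusted p = 0.0046).

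The proteins that L1 family members bind include receptors beside them in the membrane and the linkers that hold them to the cytoskeleton, and several linker genes fell. Of 25 genes listed, 15 were tested, 1 was called higher (6.67%, against 10.4% of all tested genes) and 6 lower (40.0%, against 9.00%), and 5 had 0 counts in every library. The median log2 fold change was -0.26, against 0.005 over all tested genes. The gene lists here and below were chosen with earlier results of these data known, so their shares are a description. The ERM protein genes EZR (ezrin) and MSN (moesin), whose products join membrane proteins to actin, fell together. EZR went from 396 and 407 CPM in shCON to 266 and 270 CPM in shSPTLC2 (-0.58 ± 0.10, edgeR adjusted p = 0.0015). MSN went from 1786 and 1961 CPM to 1193 and 1332 CPM (-0.57 ± 0.12, edgeR adjusted p = 0.0039). The third gene of that group, RDX (radixin), had 0.18 ± 0.10 and was not called (edgeR adjusted p = 0.25).

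Among the ankyrins, which grip the tail of L1 family proteins, ANK2 fell from 53.4 and 55.6 to 36.0 and 41.6 CPM (-0.49 ± 0.12, edgeR adjusted p = 0.012). ANK3, the ankyrin of the axon initial segment, fell from 7.76 and 9.27 to 5.17 and 5.60 CPM (-0.66 ± 0.22, edgeR adjusted p = 0.043), a call that ended in 6 of the 10 alternatives, the GC-content offset (0.079), DESeq2 (0.11), library totals (0.060) and the fit without shCON replicate 2 (0.15) among them (0.011 to 0.25 over all 10). SPTAN1 (spectrin alpha, -0.36 ± 0.11) and SDCBP (syntenin, -0.34 ± 0.11) also fell (edgeR adjusted p = 0.033 and 0.037). Their calls ended in 4 and 3 of the 10 alternatives, in that order. NCAM1, a surface partner of L1CAM, rose from 48.7 and 54.9 to 69.4 and 76.0 CPM (0.49 ± 0.12, edgeR adjusted p = 0.0097). The neuropilins NRP1 (-0.26 ± 0.11) and NRP2 (-0.28 ± 0.12), which pair with L1 family proteins in semaphorin receptors, were not called (edgeR adjusted p = 0.12 for each). The number of calls in this list changed with the shSPTLC2 libraries and the scaling. Without replicate 1 the list had 0 called in either direction, without replicate 2 it had 0 higher and 3 lower, and with library totals in place of TMM 3 were lower.

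**Figure D4:**
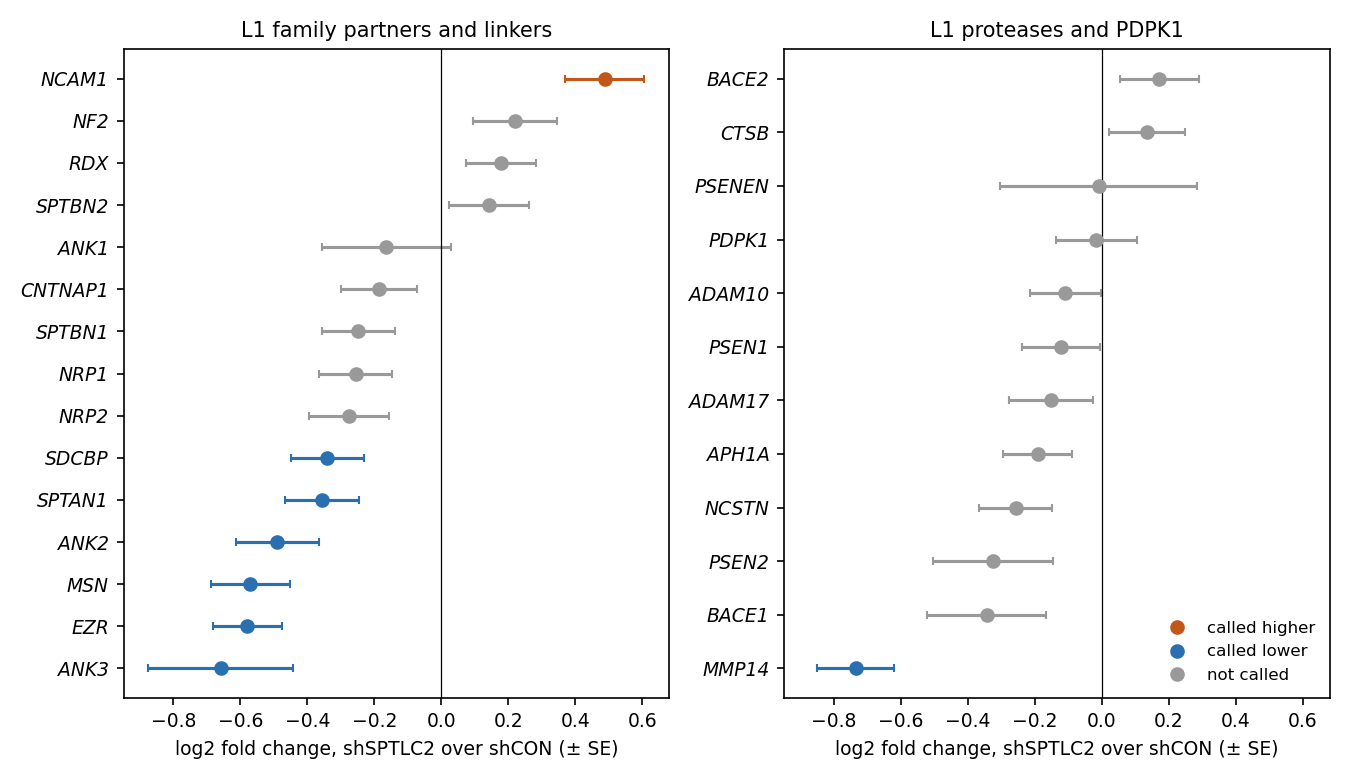
Log2 fold change (horizontal axis, shSPTLC2 over shCON, whiskers SE) of the tested partners and linkers of the L1 family (left) and of the proteases that cut L1 proteins with PDPK1 (right), with called genes in colour. EZR, MSN, ANK2, ANK3, SPTAN1 and SDCBP lie below 0 and NCAM1 above it, and MMP14 is the called gene on the right.

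L1CAM is released from cells by cleavage, and of 11 genes for proteases and gamma-secretase subunits that cut L1 proteins, all were tested, 0 were higher and 1 was lower (9.09%, against 9.00%), with a median of -0.15. The count of 0 higher was the same at an unadjusted edgeR p under 0.05, with DESeq2 and with limma-voom. MMP14, the membrane-bound matrix protease, fell from 1059 and 1114 CPM to 611 and 694 CPM (-0.74 ± 0.11, edgeR adjusted p = 5.6e-04). ADAM10 (-0.11 ± 0.11), the main sheddase of L1CAM, was not called (edgeR adjusted p = 0.51), nor was ADAM17 (-0.15 ± 0.13, edgeR adjusted p = 0.43). CTSB (0.14 ± 0.11) and APH1A (-0.19 ± 0.10), the other abundant genes of the list, were not called either (edgeR adjusted p = 0.43 and 0.21). The MMP14 call ended without shSPTLC2 replicate 1 (edgeR adjusted p = 0.055, and 2.7e-12 to 0.055 over the alternatives), where the list had 0 calls, and without shCON replicate 1 it had 2.

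PDPK1, the kinase that activates AKT and that AMIGO2 has been reported to bind, was at 43.3 and 47.0 CPM in shCON and 43.0 and 46.3 CPM in shSPTLC2. Its groups overlapped, with a log2 fold change of -0.02 ± 0.12 (edgeR adjusted p = 0.93) whose sign turned in 4 of the 10 alternatives.

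The leucine-rich repeat surface proteins, to which AMIGO proteins belong more widely, moved both ways. The list had 40 genes, of which 12 had 0 counts in every library. The table holds ELFN2 under 2 identifiers, and with both, 15 rows were tested, 3 were higher (20.0%, against 10.4%) and 1 lower (6.67%, against 9.00%), with a median of 0.15. SLITRK5, a neuronal adhesion protein gene, rose from 9.85 and 7.41 to 16.2 and 22.2 CPM (1.15 ± 0.19, edgeR adjusted p = 0.0010) and was called under every alternative (1.4e-09 to 0.035). LRIG3 (0.77 ± 0.19) and FLRT2 (0.50 ± 0.13) rose, and LRIG1, which restrains growth factor receptors, fell (-0.56 ± 0.13). For LRIG3, FLRT2 and LRIG1 the edgeR adjusted p was 0.011, 0.016 and 0.0091. The calls of these genes ended in 2, 1 and 2 of the 10 alternatives, in that order. LRFN4, ELFN2 under its more abundant identifier, and TPBG, the genes of this list with the highest FPKM, had log2 fold changes of 0.11 ± 0.14, 0.10 ± 0.12 and -0.02 ± 0.12 and were not called (edgeR adjusted p = 0.64, 0.62 and 0.94), although LRFN4 was called higher without shCON replicate 1 (0.37) and all 3 changed sign under some alternative. Without shSPTLC2 replicate 1 the list had 1 higher and 0 lower, without shSPTLC2 replicate 2 it had 2 and 0, and without shCON replicate 1 it had 5 and 1.

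Other immunoglobulin adhesion proteins, the wider relatives of the L1 family, were also divided. Of 47 genes, 28 were tested, 5 were higher (17.9%, against 10.4%) and 3 lower (10.7%, against 9.00%), with a median of 0.10. MCAM, an adhesion protein of melanoma and endothelial cells, rose from 103 and 112 to 154 and 179 CPM (0.63 ± 0.11, edgeR adjusted p = 0.0015). F11R, a tight junction protein gene, rose from 11.1 and 13.6 to 20.3 and 26.5 CPM (0.92 ± 0.17, edgeR adjusted p = 0.0019), and BCAM, ESAM and IGSF8 were the other genes called higher (0.58 to 0.76). For BCAM, ESAM and IGSF8 the edgeR adjusted p was 0.042, 0.034 and 0.019. Their calls ended in 5, 4 and 4 of the 10 alternatives, in that order. ICAM1, the leukocyte ligand, fell from 83.5 and 81.9 to 48.0 and 46.6 CPM (-0.81 ± 0.11, edgeR adjusted p = 2.6e-04) and was called under every alternative (5.1e-09 to 0.019). PTPRK, a receptor phosphatase that binds copies of itself, fell (-0.77 ± 0.13, edgeR adjusted p = 8.0e-04), as did CADM1 (-1.08 ± 0.33, edgeR adjusted p = 0.030). The calls of MCAM, F11R and PTPRK each ended in 1 of the 10 alternatives. The CADM1 call ended with DESeq2 (adjusted p = 0.086), without shCON replicate 1 (0.052) and without shSPTLC2 replicate 1 (0.28), with 0.012 to 0.28 over the alternatives. ALCAM, PVR and PTPRF, the most abundant of the list per length, were not called (0.02 ± 0.11, -0.12 ± 0.11 and 0.08 ± 0.11). Without shSPTLC2 replicate 1 the list had 2 higher and 1 lower, without shSPTLC2 replicate 2 it had 0 and 3, without shCON replicate 2 it had 3 and 3, and 3 were higher with an offset for GC content and with DESeq2.

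Markers of cells in which these families are typical were read in the same libraries. Of 10 neuronal markers, ELAVL4, DCX and NEFL had 0 counts, SNAP25 and STMN2 had 0 to 2, and the summed level was 4.75 and 5.35 FPKM in shCON and 5.53 and 5.72 in shSPTLC2, mostly RBFOX3 (3.04 to 4.51 FPKM). Only 3 of these 10 had enough reads to test, and 19.4% of all tested genes were called. RBFOX3 was called higher (0.46, edgeR adjusted p = 0.021) and SYT1 lower (-0.85, edgeR adjusted p = 0.018), the latter with 105 and 103 counts in shCON against 57 and 61. TUBB3 was not called (0.17, edgeR adjusted p = 0.81). Of 6 glial and Schwann cell markers, S100B had 0 counts and SOX10 1 to 5, and the sum was 0.594 and 0.760 FPKM in shCON against 0.343 and 0.542. MBP made up most of it and was the only marker of this list with enough reads to test. It was called lower, with 140 counts in each shCON library against 72 and 107 (-0.68, edgeR adjusted p = 0.040). Of 6 endothelial markers, the sum went from 10.7 and 10.1 to 18.4 and 22.3 FPKM along with L1CAM. CDH5 made up most of it (log2 fold change 1.09, edgeR adjusted p = 3.7e-05), whereas PECAM1, with 31 and 27 counts in shCON and 6 and 12 in shSPTLC2, fell (-1.71, edgeR adjusted p = 0.018), and TEK and CLDN5 had at most 5 counts. In this list 4 were tested, and VWF (-0.61, edgeR adjusted p = 0.40) and ERG (0.04, edgeR adjusted p = 0.93) were not called. The 6 leukocyte markers together had 4 to 6 counts per library. The part of any such cells in the changes of AMIGO2 and L1CAM was not tested.

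The genes whose profile over the 4 libraries was most like that of each leading member were sought among 10265 tested protein-coding genes averaging 5 CPM or more, by the distance between log2 CPM centred on the mean of each gene. For AMIGO2 these were OAS2 (distance 0.44), SLIT2 (0.50) and TRAF1 (0.50), with log2 fold changes near -1.64, all of them smaller falls than that of AMIGO2. For L1CAM these were GSDMB (0.12), GRAMD1B (0.16) and KRT81 (0.18), at 1.67, 1.73 and 1.49. The profiles share the 4 libraries and were chosen for their likeness, so they are a description.

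**Figure D5:**
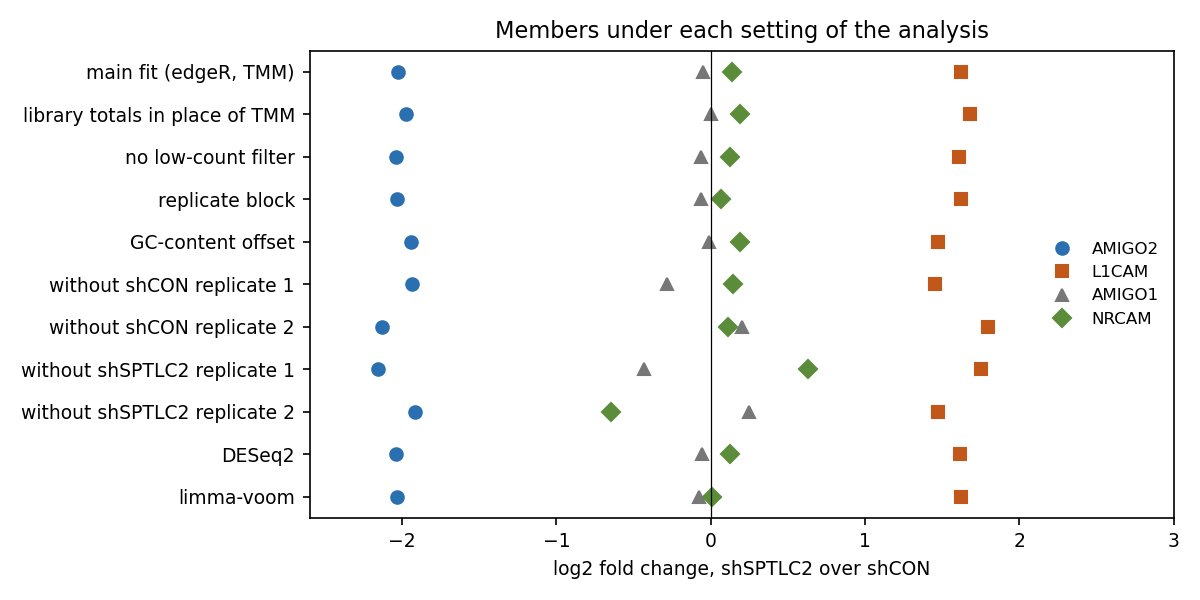
Log2 fold change (horizontal axis, shSPTLC2 over shCON) of the 4 tested members under the edgeR fit with TMM scaling and under each of the 10 alternatives (rows). AMIGO2 stays between -2.16 and -1.91 and L1CAM between 1.45 and 1.79, whereas AMIGO1 (-0.43 to 0.25) and NRCAM (-0.65 to 0.63) lie on both sides of 0. AMIGO2 and L1CAM were picked for their changes in these same libraries.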

How the data were processed

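RNA-seq of total RNA from 4 Hey-A8 libraries (prepared with a NEBNext Ultra kit, per the labels' protocols) was analysed from 2 deposited tables. The authors' count table holds raw read counts of 58735 Ensembl genes. The FPKM values deposited by the authors equal count over gene length, up to a library factor, within the precision of the file. HISAT2, StringTie and SAMtools were used with hg38, per the submitters' processing notes, and the counting program is not given in the sources used here. All 58735 IDs and coordinates matched GENCODE 29, which gave exons and transcript GC content. All 7 members had entries among the RefSeq promoter windows.

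Counts were tested with edgeR 4.0.16 in R 4.3.3 (filterByExpr with minimum count 10 and minimum total 15, TMM, robust quasi-likelihood F test, two-sided, no covariates, Benjamini-Hochberg over 15313 genes, called at 0.05). Each SE was obtained by dividing the size of the log2 fold change by the root of its F statistic. CPM use TMM-adjusted library sizes. A count of 0 allows up to 3 counts. The script was tested on simulated data. Replicates differed beyond counting noise (chi-square p under 0.05 for 36.7% of genes in shCON and 28.4% in shSPTLC2). Alternatives were DESeq2 1.42.0, limma-voom (limma 3.58.1), library totals, no filter, a GC-content offset, a replicate block and leaving out each library. Members and lists were chosen with earlier results of these data known. Named were all members, SPTLC2, ZDHHC15, their neighbours and most similar profiles, and in each list up to 4 called genes with the smallest adjusted p and the 3 with the highest FPKM. Other list genes (RDX, ANK3, SPTAN1, NRP1, NRP2, ADAM10, ADAM17, BCAM, ESAM, IGSF8, CADM1) and markers were named after their values were seen. The list of AMIGO partners was reduced to PDPK1, and the rest of it is not reported here.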

Additional observations from a re-analysis of the deposited data

How the results depend on the processing

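Under all 10 alternatives AMIGO2 stayed between -2.16 and -1.91 and L1CAM between 1.45 and 1.79. Both were picked for large changes in these libraries, and the alternatives refit the same libraries. Their ranges are therefore a description and no support for the changes. With 1 library left out, 413 to 1977 genes were called higher and 227 to 2050 lower, the fewest without shSPTLC2 replicate 1. DESeq2 called 1087 higher and 1062 lower. Leaving out a library gave 0 to 1 L1 partners called higher and 0 to 8 lower, 0 to 2 L1 proteases lower, 1 to 5 leucine-rich repeat genes higher and 0 to 1 lower, and 0 to 4 immunoglobulin adhesion genes higher and 1 to 3 lower. With library totals 3 L1 partners were lower, and 3 immunoglobulin adhesion genes were higher with the GC-content offset and with DESeq2. AMIGO1 changed sign with library totals (0.0026), without shCON replicate 2 (0.20) and without shSPTLC2 replicate 2 (0.25), within -0.43 to 0.25 over the libraries left out, as did NRCAM without shSPTLC2 replicate 2, within -0.65 to 0.63. Signs of genes that were not called also changed. With the GC-content offset these were ALCAM (-0.026), ELFN2 (-0.10), LRFN4 (-0.18), PDPK1 (0.011) and TPBG (0.078), and with library totals PDPK1 (0.038) and TPBG (0.038). With 1 library left out the ranges that crossed 0 were -0.041 to 0.077 for ALCAM, -0.13 to 0.37 for LRFN4, -0.084 to 0.038 for PDPK1, -0.061 to 0.20 for PTPRF and -0.19 to 0.16 for TPBG. Leaving out a library left 1 in its group, whose spread was taken to be like that of the other group. The cause was not tested. With the replicate number as a block, 1776 genes were higher and 1531 lower. The labels do not say that equal numbers mark a shared culture or day, and deviations of same-numbered libraries had a correlation of -0.013 over 15313 genes, so the replicate block rests on a shared number only. At this depth, 3 counts equal 0.195 to 0.206 CPM, which limits NFASC, CHL1 and AMIGO3.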
